A study of Homo sapiens with 22 samples.

Results

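The fibroblast growth factor (FGF) genes examined here were FGF1, FGF2, FGF5, FGF7 and FGF18, which encode secreted ligands, and FGFR1, FGFR2, FGFR3 and FGFR4, which encode the receptors. These 9 genes were chosen by name, and 8 of them had a row among the 36859 genes of the deposited table. FGF18 was not analysed here. FGF7 was below the minimum for testing, 10 normalized counts in 2 or more libraries, so 7 genes were tested among 14585.

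The libraries came from RPTEC, human renal proximal tubule epithelial cells immortalized with hTERT, in 11 groups of 2 libraries each (22 libraries). In 2% serum these were WT cells, WT cells after 72 h in 10 ng/ml TGF-β, and the SETD2-edited clones KO1 and KO2. A line labelled KO2_Rescue is placed with these 2% serum groups by its labels. In 10% serum (regular media) these were Rescue1 and Rescue2, made from KO cells with a lentivirus carrying full-length SETD2, and WT cells transduced with an eGFP vector, SOX2, OCT2 or PRRX1. KO1 and KO2 are each 1 clone of cells edited with CRISPR in SETD2. This gene encodes the enzyme that adds the third methyl group to lysine 36 of histone H3. Rescue1 and Rescue2 are each 1 picked colony kept under blasticidin, whereas the 4 transduced WT lines were selected in bulk under puromycin. Which KO clone gave rise to Rescue1 and Rescue2 is not given in the sources used here. Serum therefore differed between rescue and KO cells and between eGFP and WT cells, and its share in those differences cannot be told apart from that of SETD2, transduction or selection. Rescue and eGFP cells had the same serum but differed in KO origin, antibiotic and colony picking. The share of SETD2 in that difference cannot be told apart either. Nothing states that duplicates came from separate cultures, so the p-values measure the spread between these libraries only.

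SETD2 itself had 1852 and 2061 normalized counts in WT, 1046 and 1130 in KO1, 1050 and 1052 in KO2, and 9764 to 10445 in the 4 libraries of Rescue1 and Rescue2. The libraries labelled KO2_Rescue had 834 and 820, below those of KO2, so their mRNA goes against the label. The libraries held roughly 7500000 to 18600000 reads each, as read from the spacing of the values. WT duplicates stood furthest apart, with 52 of 2314 genes at a mean of at least 1000 counts differing by more than 2-fold between them, against 28 of 2380 in KO1 and 5 to 10 in every other group. The keratin- and cadherin-based epithelial list was above 10 counts for 10 of 10 genes in WT, and the proximal tubule list for 6 of 10, with LRP2, HNF4A and SLC22A6 at 0. The summed level of the epithelial list was 38548 to 40438 in WT, 31610 to 34004 after TGF-β treatment, 10898 to 12787 in KO1, 21130 to 21961 in KO2, 37607 to 42262 in Rescue1 and Rescue2, and 20669 to 22080 in eGFP libraries, and CDH1 was at 0 in KO1 and Rescue1. Of 9 tested genes, by the calls defined below, 1 was higher and 7 lower in KO1 than in WT (25.0% of all genes called). In KO2 1 was higher and 3 lower (16.3%). Rescue against KO cells had KRT8 higher and CLDN1 lower (median log2 change 0.23, with 23.3% of all genes called). Rescue against eGFP cells had KRT8 higher and OCLN lower (median -0.87, 13.1%). KO2_Rescue against KO2 had KRT8 higher and 0 lower (median 0.28, 4.17%). The summed level of the 9 fibroblast markers in the table was 846 to 12452 in WT, 46406 to 47817 after TGF-β treatment, 223505 to 236654 in KO1, 100073 to 103687 in KO2, 830 to 1536 in Rescue1 and Rescue2, and 3686 to 4238 in eGFP libraries. Of 8 tested, DCN, LUM, PDGFRA and THY1 were called higher and COL3A1 lower in KO1 than in WT (25.0% of all genes called). In KO2 the same 4 were called higher and 0 lower (16.3%). With TGF-β COL1A1, DCN and PDGFRA were called higher and 0 lower (7.84%). The summed level of the proximal tubule list was 3254 to 4776 in WT and 2917 to 3065 after TGF-β treatment. It was higher in the KO clones, at 7524 to 8235 in KO1 and 6282 to 6636 in KO2. Rescue1 and Rescue2 had 4426 to 5169, and eGFP libraries 6530 to 7097. In the libraries labelled KO2_Rescue the epithelial sum was 40996 to 42303, the fibroblast sum 39189 to 41519 and the proximal tubule sum 4111 to 4427. The part of these lists in the FGF values below was not tested.

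FGF ligands bind receptor tyrosine kinases at the cell surface together with heparan sulfate or a Klotho co-receptor, and the activated receptors signal through docking proteins to the MAP kinase cascade, which induces its own inhibitors of the Sprouty and DUSP families. FGF1 and FGF2 lack a classical signal peptide, FGF1 binds every FGF receptor, and FGF7 is made by mesenchymal cells and acts on the epithelial splice form of FGFR2. In kidney, FGF signalling is needed for outgrowth of the ureteric bud and survival of nephron progenitors.

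FGFR2 and FGF1 showed the largest differences, and the promoters of their canonical transcripts are printed here because these start sites differ in base composition. Each sequence is the reference window from RefSeq (GRCh38.p14) of 250 bases before to 50 bases after the start of the canonical transcript, on the minus strand, with every CpG in capitals. The FGFR2 window lies at chr10:121598395-121598694 and holds 52 CpG, as many as or more than 99.4% of 35097 promoters of the same length, whose median was 14. The FGF1 window lies at chr5:142686041-142686340 and holds 8 CpG, as many as or more than 41.6% of them.
FGFR2: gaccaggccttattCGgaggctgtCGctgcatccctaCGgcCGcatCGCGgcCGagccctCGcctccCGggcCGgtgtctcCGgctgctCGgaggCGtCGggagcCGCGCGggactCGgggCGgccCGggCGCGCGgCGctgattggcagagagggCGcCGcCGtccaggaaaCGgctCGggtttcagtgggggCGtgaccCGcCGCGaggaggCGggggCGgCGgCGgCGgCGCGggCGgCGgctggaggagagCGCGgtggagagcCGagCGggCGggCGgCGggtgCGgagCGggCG
FGF1: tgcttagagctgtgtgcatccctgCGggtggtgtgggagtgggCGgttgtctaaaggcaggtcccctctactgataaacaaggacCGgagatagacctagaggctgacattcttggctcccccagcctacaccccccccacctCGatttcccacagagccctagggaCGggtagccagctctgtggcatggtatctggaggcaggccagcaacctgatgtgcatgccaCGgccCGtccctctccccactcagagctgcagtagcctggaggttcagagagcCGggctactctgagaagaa
RefSeq lists other start sites too, and the difference in CpG is one between these windows: the other 4 FGFR2 windows hold 5 to 8 CpG and the other 3 FGF1 windows 2 to 5. Both strands were searched for motifs. The E-box CACCTG, which 20.6% of all promoters hold, was in neither printed window. It was in 2 other FGF1 windows, which overlap and share the same site, and in 1 other FGFR2 window. The SMAD-binding motif CAGAC (45.2% of promoters), the AP-1 motif TGANTCA (7.71% of promoters) and the TATA box TATAAA (11.5% of promoters) were likewise in neither. The SMAD-binding and AP-1 motifs were both in 1 other FGF1 window, and the SMAD-binding motif was in 3 other FGFR2 windows. The TATA box was in no listed window of FGF1 or FGFR2. No chromatin or methylation data were used here, so these letters are shown as the sequence only.

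A gene was called where limma's moderated test gave an adjusted p under 0.05, by the Benjamini-Hochberg method over all tested genes, and the difference in log2(normalized count + 1) was over 1 in size. Log2 changes below are on that scale, with the standard error (SE), and levels are normalized counts, from bulk RNA in which fewer cells of a type and less RNA per cell cannot be told apart.

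**Figure D1:**
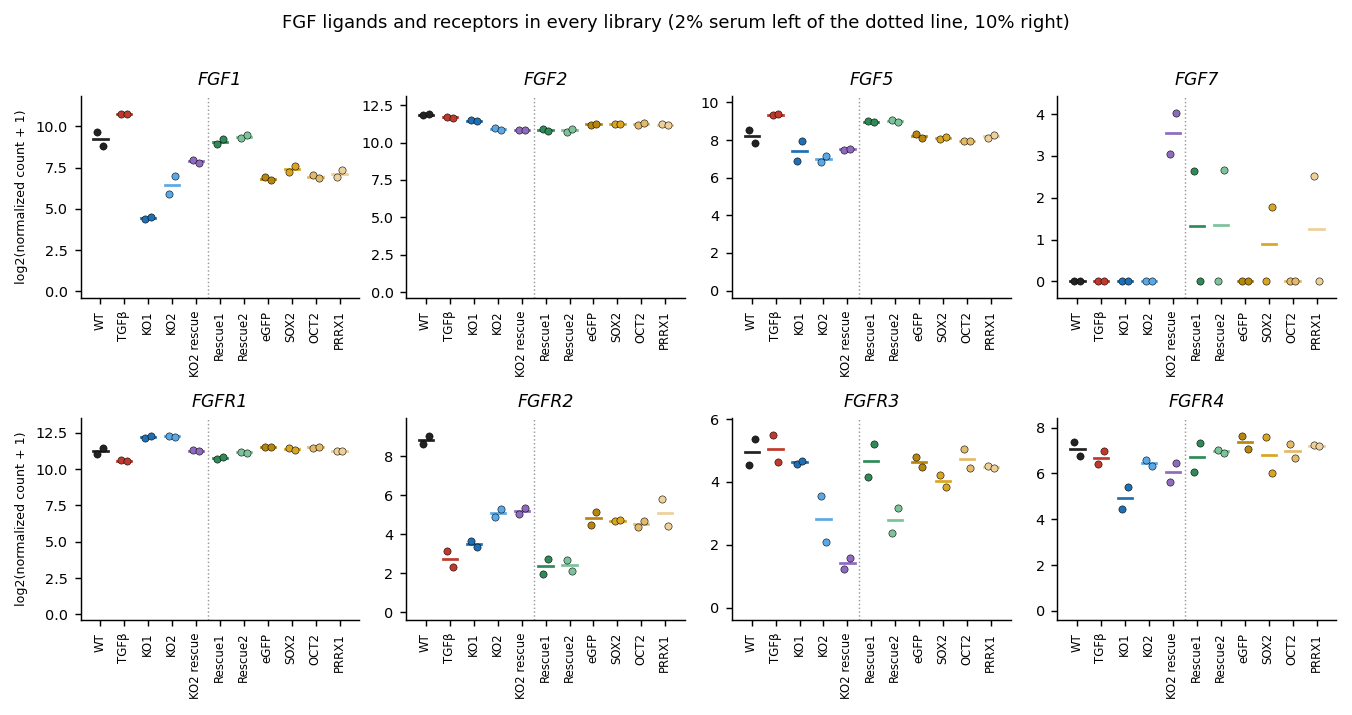
Level of each FGF gene with a row, as log2(normalized count + 1) on the vertical axis, in the 2 libraries of every group (points) with their mean (bar). WT stands apart from every other group for FGFR2, at 401 and 532 normalized counts, and KO1 has the lowest FGF1, at 20.2 and 21.4.

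In WT cells FGF2 was the most abundant ligand per kb of its canonical transcript, at 562 ± 30.3 normalized counts per kb (SD, n = 2), followed by FGF1 at 165 ± 67.1 and FGF5 at 56.3 ± 18.2. SETD2 knockout clones had less FGF1 than WT, TGF-β-treated cells had more, and FGF2 was within the 2-fold limit in every comparison as fitted, though close to it in KO2.

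FGF1 (acidic FGF; chromosome 5, 142592178 to 142698070, minus strand, GRCh38) had 796 and 441 normalized counts in WT, 1701 and 1726 after TGF-β treatment, 20.2 and 21.4 in KO1, and 58.7 and 126 in KO2. The libraries labelled KO2_Rescue had 247 and 220. In 10% serum FGF1 was at 494 and 587 in Rescue1, 611 and 720.4 in Rescue2, 120.2 and 106 in eGFP cells, 149 and 192 in SOX2 cells, 131 and 115 in OCT2 cells, and 123 and 159 in PRRX1 cells. All 4 KO libraries were below all WT libraries, and the 4 rescue libraries lay within the WT range. Of the 10 pairs of neighbouring groups in the order of FGF1 means, 6 overlapped in range.

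FGF1 was 27.2-fold lower in KO1 than in WT (log2 change -4.77, SE 0.31, adjusted p = 1.41e-08) and 6.82-fold lower in KO2 (-2.77, SE 0.31, adjusted p = 8.21e-06). It was higher with TGF-β (log2 change 1.53, SE 0.31, adjusted p = 0.00319), where leaving out WT replicate 2 gave 1.11 with adjusted p = 0.0565 and fitting the TGF-β and WT libraries alone gave adjusted p = 0.0599. It was also lower in eGFP cells than in WT (log2 change -2.38, adjusted p = 5.17e-05), a comparison in which serum, transduction and selection differ and SETD2 was not edited. Rescue cells had more FGF1 than KO cells (3.78, SE 0.22, adjusted p = 3.28e-09) and more than serum-matched eGFP cells (2.40, SE 0.27, adjusted p = 1.05e-05).

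FGF2 (basic FGF; chromosome 4, 122826682 to 122898236, plus strand) had 3599 and 3884 normalized counts in WT, 3381 and 3272 after TGF-β treatment, 2871 and 2734 in KO1, and 2001 and 1827 in KO2. It ranged from 1705 to 1961 in the rescue clones and from 2306 to 2518 in the 4 transduced WT lines, and was at 1868 and 1871 in the libraries labelled KO2_Rescue. WT had the highest level, and the ranges of WT, TGF-β and KO1 did not overlap. The change was -0.97 on the log2 scale in KO2 (SE 0.08, adjusted p = 2.26e-07) and -0.42 in KO1 (SE 0.08, adjusted p = 0.000562), both under the 2-fold limit. The KO2 change passed the limit after scaling libraries to equal totals (-1.19), with quantile normalization (-1.03), without WT replicate 1 (-1.02) and without KO2 replicate 1 (-1.03). NUDT6, an antisense gene that overlaps FGF2, was at 43.7 to 148 normalized counts across the libraries.

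FGF5 (chromosome 4, 80266639 to 80336680, plus strand), a ligand known for ending the growth phase of hair, had 368 and 231 normalized counts in WT, 632 and 675 after TGF-β treatment, 119 and 250.1 in KO1, and 113 and 142 in KO2. The rescue clones had 489.5 to 529, eGFP cells 317 and 278, and the other transduced lines 244 to 312. KO1 overlapped with WT in range, whereas KO2 lay below it and TGF-β above it. FGF5 was called lower in KO2 (log2 change -1.19, SE 0.27, adjusted p = 0.00359) and higher with TGF-β (1.16, SE 0.27, adjusted p = 0.00766). Without WT replicate 1 the change in KO2 was -0.86 (adjusted p = 0.0546), and in a fit of the compared libraries alone its adjusted p was 0.0629. The change with TGF-β was 0.83 without WT replicate 2 (adjusted p = 0.108) and 1.11 without TGF-β replicate 2 (adjusted p = 0.0529). It was 0.93 with equal library totals (adjusted p = 0.0202), and its adjusted p was 0.0748 with the compared libraries alone.

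FGF5 separated the knockout from the TGF-β-treated cells more firmly, with a log2 change of -2.13 between the mean of both KO clones and TGF-β (SE 0.24, adjusted p = 4.2e-06). Rescue cells had more FGF5 than KO cells (1.77, SE 0.19, adjusted p = 2.54e-06), and 0.77 more on the log2 scale than eGFP cells, which was under the 2-fold limit (adjusted p = 0.0226).

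FGF7 (keratinocyte growth factor; chromosome 15, 49423237 to 49488775, plus strand) was at 0 in 16 of 22 libraries. The libraries labelled KO2_Rescue had 7.26 and 15.4 normalized counts, and 4 single libraries of Rescue1, Rescue2, SOX2 and PRRX1 had 2.41 to 5.37. The values were too low to test. The rows of its pseudogenes FGF7P3 and FGF7P6 had 65.1 to 155 and 12.9 to 112 in the same libraries, and reads of these near-identical copies can be split among the rows in either direction, so the FGF7 level is uncertain.

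FGFR1 was the most abundant receptor per kb in every group, and FGFR2 was the receptor that differed most between groups. WT cells in 2% serum had 401 and 532 FGFR2 counts, and the other 20 libraries had at most 55.0. FGFR1 was higher in the KO clones than in any other group.

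FGFR1 (chromosome 8, 38400215 to 38468834, minus strand) had 2098 and 2775 normalized counts in WT, 1545 and 1489.5 after TGF-β treatment, 4517 and 4951 in KO1, and 4981 and 4798 in KO2. The libraries labelled KO2_Rescue had 2524 and 2389. Rescue1 had 1667 and 1789, Rescue2 had 2326 and 2201, eGFP cells had 2973 and 2947, and the other transduced lines had 2366 to 2973. The 4 KO libraries were above all others, and the 2 TGF-β libraries below all others.

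FGFR1 was called higher in KO2 than in WT (log2 change 1.02, SE 0.10, adjusted p = 2.84e-06) and just missed the 2-fold limit in KO1 (0.97, SE 0.10, adjusted p = 2.82e-06). These 2 changes differed by -0.05 (KO1 less KO2; adjusted p = 0.815). When every library was scaled to the same total they were 0.79 and 0.56, and the KO2 change was 0.82 without WT replicate 1 (adjusted p = 8.86e-06) and 0.99 without KO2 replicate 1 (adjusted p = 9.52e-05). KO cells exceeded TGF-β-treated cells by 1.66 (SE 0.09, adjusted p = 1.59e-09), and rescue cells were below KO cells by -1.28 (SE 0.07, adjusted p = 2.54e-09), or by -0.89 with equal library totals (adjusted p = 4.07e-07), which is under the 2-fold limit. Rescue against eGFP cells, at -0.58 (adjusted p = 0.000184), was under the 2-fold limit.

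FGFR2 (chromosome 10, 121478332 to 121598458, minus strand) had 401 and 532 normalized counts in WT, 7.92 and 3.92 after TGF-β treatment, 11.7 and 9.30 in KO1, and 29.1 and 38.9 in KO2. The libraries labelled KO2_Rescue had 32.2 and 39.5. In 10% serum there were 2.92 and 5.71 in Rescue1, 5.51 and 3.30 in Rescue2, 21.6 and 34.1 in eGFP cells, 24.3 and 25.6 in SOX2 cells, 20.1 and 24.8 in OCT2 cells, and 55.0 and 20.6 in PRRX1 cells. No other group overlapped with WT, and the eGFP, SOX2, OCT2 and PRRX1 lines overlapped with one another.

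Against WT, FGFR2 was lower by a log2 change of -6.13 with TGF-β (SE 0.54, adjusted p = 2.06e-06), -5.34 in KO1 (SE 0.54, adjusted p = 1.47e-06), -3.74 in KO2 (SE 0.54, adjusted p = 7.78e-05) and -4.04 in eGFP cells (SE 0.54, adjusted p = 5.57e-05). These are 69.8-, 40.4-, 13.4- and 16.4-fold differences, and with few reads in the lower group their size depends on the pseudocount. With a pseudocount of 5 the TGF-β change was -5.44. These 4 comparisons share the WT libraries. The low FGFR2 was therefore also measured in WT cells with unedited SETD2 and without TGF-β.

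Rescue cells had the fewest FGFR2 counts of the 10% serum groups. They were below KO cells (-1.93, SE 0.38, adjusted p = 0.000702) and below eGFP cells (-2.44, SE 0.47, adjusted p = 0.00104). Against KO1 alone the first difference was -1.14 (adjusted p = 0.0604). KO cells were above TGF-β-treated cells by 1.59 (adjusted p = 0.0147), and without TGF-β replicate 2 by 1.16 (adjusted p = 0.177). With these libraries alone in the fit the adjusted p was 0.0956, and on the deposited log2 values it was 0.0765.

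FGFR3 (chromosome 4, 1793293 to 1808872, plus strand), a receptor known for limiting growth of bone, was low throughout, from 1.32 to 43.8 normalized counts. WT had 22.2 and 40.1, KO1 23.0 and 24.4, and KO2 10.7 and 3.21, and the libraries labelled KO2_Rescue were lowest at 1.32 and 2.01. The KO2 change from WT was -2.14 (SE 0.61, adjusted p = 0.015). Without KO2 replicate 2 it was -1.40 (adjusted p = 0.175), and without WT replicate 2 it was -1.72 (adjusted p = 0.12). In a fit of the compared libraries alone its adjusted p was 0.117.

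FGFR4 (chromosome 5, 177086905 to 177098144, plus strand), the receptor through which FGF19 represses bile acid synthesis in liver, had 163 and 106 normalized counts in WT, 21.0 and 40.9 in KO1, 93.9 and 78.9 in KO2, and 84.3 and 123 with TGF-β. It was called lower in KO1 (log2 change -2.12, SE 0.54, adjusted p = 0.00542), whereas the KO2 change was -0.60 (adjusted p = 0.456). The difference between the clones was -1.52 (adjusted p = 0.0704). Without KO1 replicate 1 the KO1 change was -1.66 (adjusted p = 0.0523), and without WT replicate 1 it was -1.81 (adjusted p = 0.0503). Its adjusted p was 0.0625 in a fit of the KO1 and WT libraries alone. The call of rescue over KO cells, at 1.14 (adjusted p = 0.0232), was lost without KO1 replicate 1 (0.91, adjusted p = 0.0859), KO2 replicate 2 (1.08, adjusted p = 0.0647), Rescue1 replicate 2 (0.82, adjusted p = 0.113) or Rescue2 replicate 1 (1.12, adjusted p = 0.0577). It was 0.38 against KO2 alone (adjusted p = 0.578) and 1.01 for Rescue1 alone (adjusted p = 0.101).

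Per kb of canonical transcript, FGFR1 made up 73.6% ± 2.58 (SD, n = 2) of the summed receptor level in WT, 86.2% ± 1.69 after TGF-β treatment, 97.9% ± 0.377 in KO1 and 95.9% ± 0.232 in KO2. It made up 87.8% ± 5.92 in Rescue1, 90.4% in both libraries of Rescue2, and 88.8% ± 2.07 in eGFP cells. FGFR2 held 17.4% of the WT sum and at most 1.71% in every other group. Among the 4 ligands with a row, FGF2 held 91.3% of the summed level in KO1 and 46.3% with TGF-β, where FGF1 held 42.3%.

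**Figure D2:**
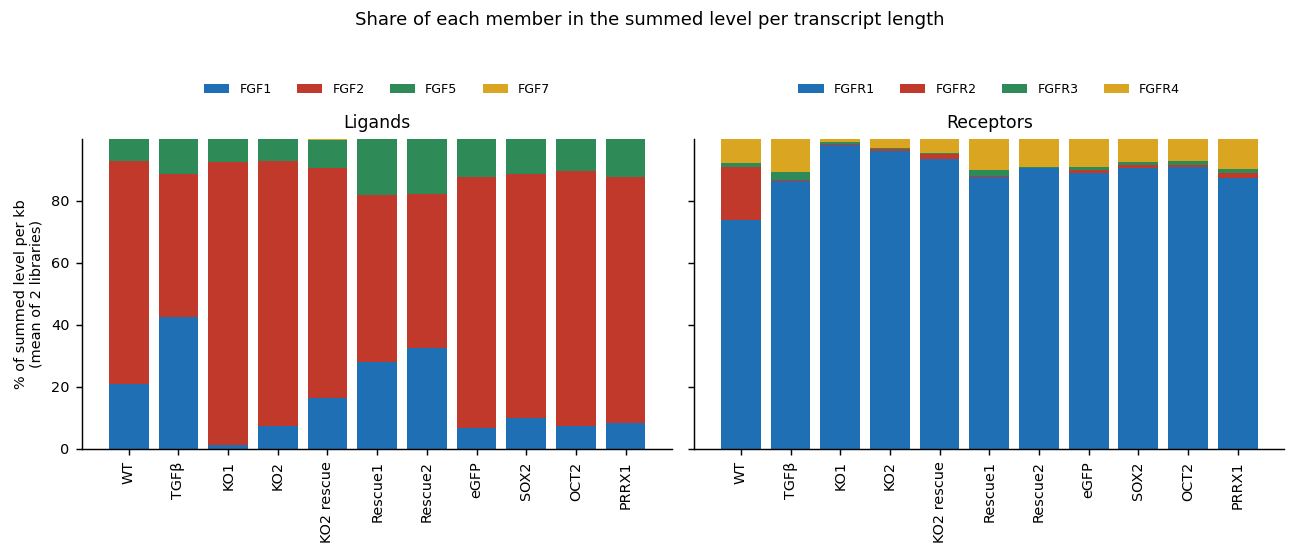
Share of each ligand (left) and receptor (right) in the summed level per kb of canonical transcript, in percent, as the mean of 2 libraries per group. WT is the only group with a visible FGFR2 share, 17.4%, and FGF1 ranges from 1.20% of the ligand sum in KO1 to 42.3% with TGF-β.

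The question of the TGF-β comparison was which genes the growth factor shifts in epithelial cells. With TGF-β 3 of 7 tested FGF genes were called (FGF1 and FGF5 higher, FGFR2 lower), where 7.84% of all tested genes were called. Against WT 3 of 7 were called in KO1 (FGF1, FGFR2 and FGFR4 lower), where 25.0% of all genes were called, and 5 of 7 in KO2 (FGF1, FGF5, FGFR2 and FGFR3 lower, FGFR1 higher), where 16.3% were. The members' median log2 change was -0.75 in KO1 and -1.19 in KO2, and that of all tested genes was 0 and 0.003. Without WT replicate 2 the counts were 1 with TGF-β (FGFR2) and 5 in KO1 (FGF5 and FGFR1 in addition).

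Between the clones, 1 of 7 was called (FGF1), against 6.97% of all genes, and 2 without KO2 replicate 1 (FGFR3 in addition). KO cells differed from TGF-β-treated cells in 4 of 7 (FGF1 and FGF5 lower, FGFR1 and FGFR2 higher), where 20.2% of all genes were called. For FGF1 and FGF5 the KO2 and TGF-β changes from WT were of opposite sign, and for FGFR2 all 3 changes were negative. These comparisons share the WT libraries.

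Restoring SETD2 was compared with KO cells and with eGFP cells, the latter in the same serum. Rescue against KO cells gave 5 of 7 called (FGF1, FGF5 and FGFR4 higher, FGFR1 and FGFR2 lower), where 23.3% of all genes were called, and rescue against eGFP gave 2 of 7 (FGF1 higher, FGFR2 lower), where 13.1% were. Between Rescue1 and Rescue2, 0 of 7 were called by limma and 2 had an unadjusted p under 0.05, where 0.994% of all genes were called. The libraries labelled KO2_Rescue differed from KO2 in 1 of 7 (FGF1, log2 change 1.43, SE 0.31, adjusted p = 0.00822), where 4.17% of all genes were called. Without KO2 replicate 1 this change was 0.89 (adjusted p = 0.119), and without the first library labelled KO2_Rescue it was 1.35 (adjusted p = 0.0662). FGFR1 was 0.99 lower there (log2 change -0.99, SE 0.10, adjusted p = 1.47e-05), just under the 2-fold limit, and it passed without KO2 replicate 2 (-1.02, adjusted p = 0.000271).

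eGFP cells in 10% serum differed from WT cells in 2% serum in 2 of 7 (FGF1 and FGFR2, both lower), where 12.7% of all genes were called. The transcription factor lines were compared with eGFP cells, all in 10% serum. No FGF gene was called by limma in SOX2 (0 of 7, where 0.0206% of all genes were called), OCT2 (0 of 7, 0.0343%) or PRRX1 cells (0 of 7, 0.0411%), and 0, 0 and 1 had an unadjusted p under 0.05. The largest of these differences in size was 0.61 on the log2 scale, for FGFR3 in SOX2 cells.

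**Figure D3:**
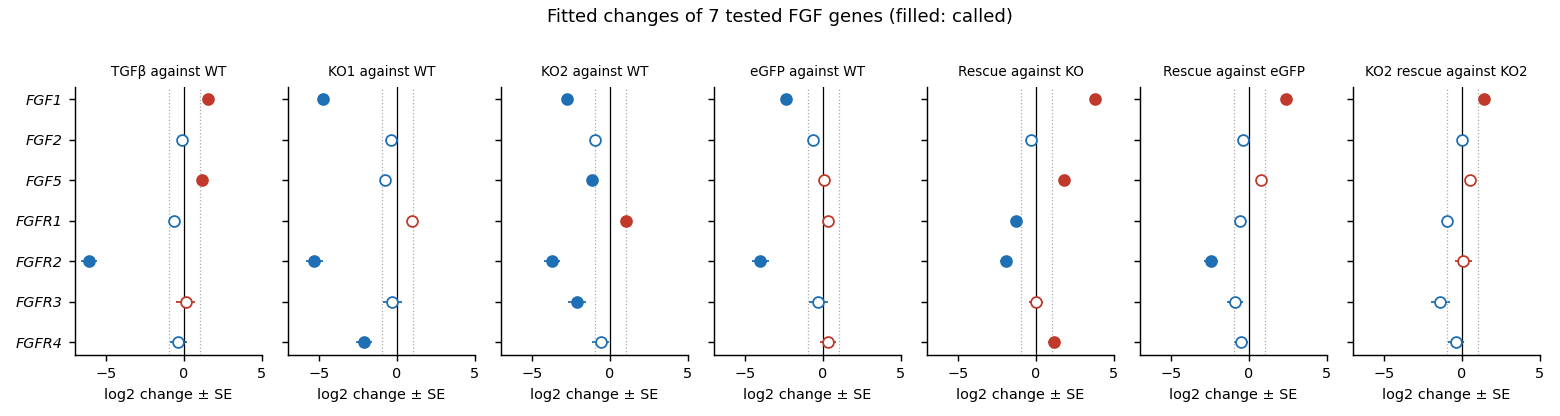
Fitted log2 change (horizontal axis, ± SE) of the 7 tested FGF genes in 7 comparisons, with filled points for called genes and dotted lines at the 2-fold limit. FGFR2 lies left of the limit in all 4 comparisons with WT, and FGF1 lies left of it in both KO clones and right of it with TGF-β.

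Lists of other FGF pathway genes were read for the genes called in both KO clones in the same direction. Among 16 tested feedback inhibitors and target genes of FGF and MAP kinase signalling, 7 were higher and 0 lower in KO1 (25.0% of all genes called), and 6 were higher and 1 lower in KO2 (16.3%), with median log2 changes of 2.03 and 1.37 beside 0 for all genes. The same list had 7 higher and 0 lower in eGFP against WT cells (median 2.13, with 12.7% of all genes called), and 5 higher and 0 lower with TGF-β (median 0.94, with 7.84%). Higher values of this list were thus also measured in cells with unedited SETD2.

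DUSP6, a phosphatase that inactivates ERK, had 10.8 and 18.1 normalized counts in WT, 588 and 747 in KO1, 257 and 419 in KO2, 259 to 344 in the rescue clones, and 196 and 259 in eGFP cells. Its change from WT was 5.47 in KO1 (adjusted p = 5.61e-08), 4.46 in KO2 (adjusted p = 9.16e-07) and 3.92 in eGFP cells (adjusted p = 5.84e-06). All WT libraries were below all of these.

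The ETS factor ETV1 had 7.46 and 6.42 counts in WT, 512 and 509.7 in KO1, 495 and 578 in KO2, and 148 and 165 in eGFP cells. ETV4, a second ETS factor induced by FGF signalling, had 12.3 and 18.0 in WT, 251 to 372 in KO1, 195 and 201 in KO2, and 295 and 233 in eGFP cells. PHLDA1, a target of ERK signalling, had 1262 and 1393 in WT, 20878 and 21580.4 in KO1, 10593 and 9409 in KO2, and 6587 and 6655 in eGFP cells. Of these 4 genes ETV1 and PHLDA1 were called lower in rescue than in KO cells (log2 changes -1.78 and -1.92, adjusted p = 0.000306 and 1.12e-13), and DUSP6 and ETV4 were not (-0.68 and -0.94, adjusted p = 0.0669 and 0.0626). Serum differed in that comparison. The libraries labelled KO2_Rescue, in the same serum as KO2 by their labels, had DUSP6, ETV1 and PHLDA1 called lower than KO2. Of the 16 tested genes of the list, 0 were called higher and 3 lower there, where 4.17% of all genes were called.

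Among 7 tested co-receptors and FGF-binding proteins, 2 were higher and 3 lower in each KO clone (medians 0.79 in KO1, where 25.0% of all genes were called, and -0.06 in KO2, where 16.3% were). NCAM1, an adhesion protein that can bind FGFR1, had 8.03 and 0 normalized counts in WT, 1533 and 1997 in KO1, 264 and 180.4 in KO2, and 821 to 1070.0 in the rescue clones. FLRT3, a membrane protein that associates with FGF receptors, had 428 and 365 in WT, 3.49 and 8.09 in KO1, 21.6 and 13.2 in KO2, and 27.6 to 68.3 in the rescue clones. NCAM1 and FLRT3 in the rescue clones lay outside the eGFP range of 5.71 to 5.75 and 289 to 337.

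FLRT2, of the same family as FLRT3, had 27.5 and 0 counts in WT, 63.1 and 127 in KO1, and 78.3 and 65.8 in KO2. KL, the Klotho co-receptor of FGF23, had 18.0 and 57.7 in WT and at most 2.88 in the 4 KO libraries, and no more than 3.09 in any library in 10% serum. The remaining gene called lower in both clones was FGFBP1, a carrier of secreted FGF, named after its values were seen, at 123 and 209 in WT and 14.0 to 30.2 in the KO libraries. FGFBP1 was also called lower than in WT with TGF-β (11.3 and 12.3) and in eGFP cells (44.3 and 77.8).

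Heparan sulfate binds FGF and its receptor into 1 complex. Of 18 tested enzymes that build or trim it, 6 were higher and 4 lower in KO1 and 5 were higher and 2 lower in KO2, with medians of -0.01 and 0.09 and 25.0% and 16.3% of all genes called. HS3ST2, a 3-O-sulfotransferase, had 132 and 61.5 normalized counts in WT and 0 to 1.74 in the KO libraries, and was at 0 in both eGFP libraries. SULF1, which removes 6-O-sulfates, had 1.9 and 0 in WT, 34.0 and 28.0 in KO1, 67.6 and 55.5 in KO2, and 0 and 1.87 in eGFP cells.

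EXTL2, a glycosyltransferase of the exostosin family, had 22.5 and 58.7 normalized counts in WT, 777 and 944 in KO1, 504 and 639 in KO2, and 77.4 to 142 in the rescue clones. HS2ST1, the 2-O-sulfotransferase, had 21.7 and 30.3 in WT, 123 and 118 in KO1, 63.0 and 101 in KO2, and 78.6 and 73.3 in eGFP cells, where it was called higher than in WT too. Of 9 tested proteoglycan cores, 0 were higher and 2 lower in KO1 and 1 was higher and 1 lower in KO2 (medians 0.03 and -0.30), beside 25.0% and 16.3% of all genes called, and 2 of 9 is near those shares. SDC2, syndecan-2, was the core lower in both, at 1163 and 1534 in WT, 364 and 173 in KO1, and 609 and 649 in KO2.

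The epithelial splice form of FGFR2 depends on ESRP1 and ESRP2, and gene rows do not separate the splice forms. ESRP2 had 511 and 753 normalized counts in WT, 457 and 517 after TGF-β treatment, 16.8 and 40.6 in KO1, 55.2 and 58.7 in KO2, 123 to 177 in the rescue clones, and 252 and 389 in eGFP cells, and ESRP1 was at 0 in WT and KO libraries. ESRP2 was called lower in KO1 (log2 change -4.51, adjusted p = 4.61e-08) and KO2 (-3.42, adjusted p = 1.59e-06) and had -0.35 with TGF-β (adjusted p = 0.565).

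**Figure D4:**
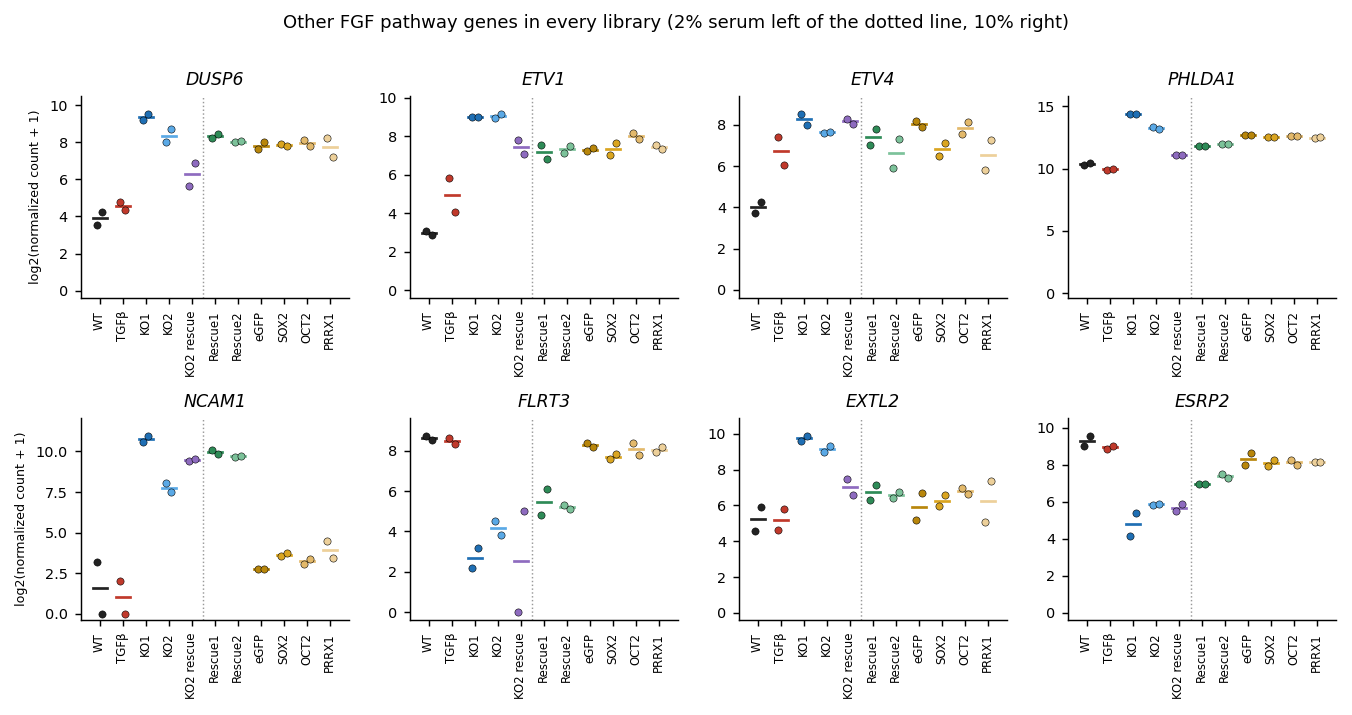
Level of 8 other FGF pathway genes as log2(normalized count + 1) on the vertical axis, in the 2 libraries of every group (points) with their mean (bar). DUSP6, ETV1, ETV4 and PHLDA1 are lowest in WT or TGF-β-treated cells and higher in KO clones and in 10% serum, NCAM1 is high in KO and rescue clones, and FLRT3 and ESRP2 are lowest in KO clones and the libraries labelled KO2_Rescue.

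Among the other lists, 1 of 13 further secreted ligands could be tested, FGF9, which had 31.2 and 17.4 normalized counts in WT, 1.25 and 0.722 after TGF-β treatment, 1.34 and 9.14 in KO1, and 17.7 and 17.1 in KO2, and was called lower in TGF-β-treated and KO1 cells. Of the 4 intracellular FGF homologous factors, FGF13, which binds sodium channels and microtubules, was called higher in KO1, at 314 and 286 against 44.2 and 44.9 in WT, and FGF12 was called higher in KO2, at 119 and 134 against 13.8 and 11.5. In eGFP cells FGF12 was also called higher than in WT (58.5 and 44.9), and FGF13 was called lower (1.82 and 1.08). These 3 genes were named after their values were seen. Of 17 tested adaptors and cascade genes, 3 were higher and 1 lower in KO1, and 0 were higher and 1 lower in KO2 (medians -0.01 and -0.08), beside 25.0% and 16.3% of all genes called.

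By Pearson's r of group means on the log2 scale over 11 groups, a description with no test, the genes most alike FGF1 in pattern were SLC35F2 (0.991), STAP2 (0.979) and FADS2 (0.976). Those most alike FGF5 were OTUD4 (0.989), MAP3K9 (0.956) and ANAPC7 (0.942). For FGFR4 they were PLS1 (0.971), ERVMER34-1 (0.969) and PKHD1 (0.963). For FGFR2 they reached lower values, with RAB9A (0.913), NUP214 (0.904) and RBPMS (0.887).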

How the data were processed

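Reads were quantified by the authors with salmon (1.9.0 in the submitters' processing notes) against Ensembl cDNA (release 94, GRCh38) and analysed with deseq2 (1.26.0). The authors deposited log2 values for 36859 genes. Their transformation is not given in the sources used here. All 22 libraries share 11.32 as lowest value, so variance-stabilized normalized counts were assumed and the transformation inverted to give normalized counts. The plan had assumed normalized counts.

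All 22 libraries entered 1 limma fit (limma 3.58.1, R 4.3.3, variance trend) on log2(normalized count + 1), a mean per group, for the 14585 genes that reached 10 normalized counts in 2 or more libraries. It was tested on simulated data. Python 3.11.15 and GENCODE release 44 (GRCh38) gave the rest.

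The members and lists were chosen with earlier results of these data known. Named were all members, genes of each list called in both KO clones in the same direction (at most 4 per list, by mean change), and the 3 genes most alike in pattern for members spanning over 2 on the log2 scale and reaching 50 counts. Alternatives were pseudocounts of 0.5 and 5, other filters, scalings and scales, subsets of libraries or clones, and a replicate block.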

Additional observations from a re-analysis of the deposited data

Results flagged for a closer look

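The KO clones differed in FGF1, by a test of the difference of their changes from WT. The log2 change of KO1 against KO2 was -2.0 (adjusted p = 0.000514, limma), with FGF1 lower in both KO1 libraries (20.2 and 21.4 normalized counts) than in both KO2 libraries (58.7 and 126). With only the KO libraries in the fit the difference kept its size and its adjusted p was 0.153. On the deposited log2 values the adjusted p was 0.071.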

How the results depend on the processing

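Over 1266 alternative values of 91 member changes, 26 of them called, 1147 kept their direction and call, 34 lost the call, 35 gained it and 50 changed sign, none of these a called change. Of the 26 called changes 14 kept the call throughout. Among changes with an adjusted p under 0.05, 1 changed sign: FGF2 in rescue against KO was 0.057 after scaling the libraries to 1 total. That scaling moved the median of all genes by -0.405 (log2) in KO1 and -0.224 in KO2 against WT, -0.233 in TGF-β against WT and 0.392 in rescue against KO.

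Numbers of FGF genes called moved as follows, and the cause was not tested. KO1 against KO2 (1) gave 2 with a pseudocount of 5, 3 with equal totals, 2 with quantile normalization and 0 with the 4 KO libraries only. With only the groups compared, TGF-β against WT (3) gave 1, KO2 against WT (5) gave 3 and KO2_Rescue against KO2 (1) gave 0. On the deposited log2 values, where no fold limit was used because the scale compresses folds, KO1 against WT (3) gave 6, rescue against eGFP (2) gave 5, KO2_Rescue against KO2 gave 2 and eGFP against WT (2) gave 4. Leaving out each library gave 1 to 3 for TGF-β against WT, 2 to 5 for KO1 against WT, 1 to 2 for KO1 against KO2 and 0 to 2 for KO2_Rescue against KO2.

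Among all genes, the deposited log2 values without a fold limit gave 2719 (TGF-β against WT, 1143 before), 5985 (KO1 against WT, 3653), 4436 (KO2 against WT, 2378), 2493 (KO1 against KO2, 1016), 5452 (KO against TGF-β, 2939), 6823 (rescue against KO, 3392), 4571 (rescue against eGFP, 1915), 233 (Rescue1 against Rescue2, 145), 1740 (KO2_Rescue against KO2, 608), 4091 (eGFP against WT, 1856) and 9, 9 and 11 (SOX2, OCT2 and PRRX1 against eGFP, from 3, 5 and 6). With fewer libraries in the fit these were 431, 2241, 255 (KO1 against KO2), 44 (Rescue clones), 1208 (eGFP against WT), 6, 1 and 1. A mean of at least 50 counts tested fewer genes and gave 1942 (KO against TGF-β), 2147 (rescue against KO), 3 (OCT2) and 3 (PRRX1). No filter gave 16, 14 and 18 for SOX2, OCT2 and PRRX1, a pseudocount of 0.5 gave 7 for SOX2, equal totals gave 6 for SOX2 and a pseudocount of 5 gave 3 for OCT2. Leaving out each library gave 734 to 1296 (TGF-β against WT), 635 to 1730 (KO1 against KO2), 6 to 35 (SOX2), 3 to 32 (OCT2) and 6 to 40 (PRRX1), the highest 3 without eGFP replicate 2 and 734 without WT replicate 2.

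With a replicate block, 3 FGF genes were called for TGF-β against WT, 3 for KO1 and 5 for KO2, as without it, and no count moved by over 1.5 times. Differences between duplicates did not correlate between groups (r from -0.082 to 0.047 over 55 pairs of groups), so the numbers did not pair the libraries. With the union of all exons as length, FGFR1 held 70.2% of the receptor sum in WT and 95.9% in KO1. Other groups moved more, to 75.4% with TGF-β, 78.3% in Rescue1, 82.9% in Rescue2 and 80.8% in eGFP cells. By that length FGFR2 held 12.3% of the WT sum, below FGFR4 at 14.3%. These shares therefore depend on the length used. With its pseudogene rows added, FGF7 differed by 0.08 (log2) between KO2_Rescue and KO2, against 3.54 alone.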
